A study of Mus musculus with 16 samples.

Results

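The genes described here are the nuclear-encoded subunits of the mitochondrial respiratory chain and of ATP synthase in blood-forming and leukemic bone marrow cells of mice. They were found by symbol, as the names that begin with Ndufa, Ndufb, Ndufc, Ndufs or Ndufv and a number, Sdha to Sdhd, Uqcr, Cyc1, Cox4 to Cox8 and Atp5, without use of any measured difference. Of 84 symbols listed in all 16 libraries, 82 lay above the lowest value of their table in at least 2 libraries and were used. Cox7b2 and Cox8c, isoforms of cytochrome c oxidase known from testis, had the lowest value throughout all 16. The 82 stand among 26595 features in the table of the CD93 experiment and 36930 in that of the drug experiment. They comprise 35 genes of complex I, 4 of complex II, 9 of complex III, 17 of complex IV and 17 of complex V. Ndufa4 was placed in complex IV, where its product is known to sit despite its name. Cox7a2l, a supercomplex assembly factor, and Atp5s and Atp5sl, which are not structural subunits of ATP synthase, match the rule and were kept.

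The study asked what CD93, a surface receptor, and metoclopramide, a dopamine receptor antagonist, do to the stem cells of chronic myeloid leukemia. Leukemia stem cells (LSCs) came from recipients of LSK cells carrying the BCR-ABL1 fusion oncogene and green fluorescent protein, where LSK stands for lineage-negative, Sca-1-positive and c-Kit-positive. The donor cells had been transduced in vitro and given to non-irradiated BL/6 hosts, so the hosts kept their own marrow and were CD93-sufficient also for the CD93-/- leukemias. RNA was amplified with SMART-Seq v4, a kit for low input. In the CD93 experiment, KO LSC (CD93-/-, leukemic) and WT LSC (BL/6, leukemic) had 3 libraries each, and KO LSK (CD93-/-, naive) and WT LSK (BL/6, naive) had 2 each. In the drug experiment, MCP LSC came from BL/6 leukemic mice given metoclopramide at 10 mg/kg and Veh LSC from such mice given vehicle, with 3 libraries each. All mice were labelled as 8 weeks old. WT and drug samples were labelled C57BL/6, and no strain was given for the CD93-/- samples. The labels do not say that replicates are separate animals, so p-values may measure technical spread only.

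The respiratory chain passes electrons from NADH at complex I and from succinate at complex II through ubiquinone to complex III, cytochrome c and complex IV, where oxygen is reduced. Complexes I, III and IV pump protons, and complex V uses the gradient to make ATP. Nearly all subunits are made from nuclear genes and imported, and a small set, absent from complex II, is made from mitochondrial DNA. In bone marrow, quiescent stem cells are known to lean on glycolysis, and leukemic stem cells have been described as more dependent on respiration.

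The libraries differed in how many features they registered at all. Features above the lowest value numbered 1230 to 2967 in KO LSC and 5525 to 7956 in WT LSC, against 14279 to 14906 in KO LSK and 14839 and 14865 in WT LSK. In the drug experiment they numbered 15587 to 16447 in MCP LSC and 19554 to 20014 in Veh LSC. The values carry no counts, so the depth is unknown and the lowest value, 0.003 or 0.001 RPKM, means only that a gene was listed there. RPKM counts reads per length of transcript, scaled to the mapped reads of the library. Cd93, the targeted gene, had 0.003, 44.3 and 0.003 RPKM in KO LSC, 0.003, 0.003 and 5.74 RPKM in WT LSC, 1.01 and 2.10 RPKM in KO LSK and 5.34 and 22.9 RPKM in WT LSK. The library labelled KO LSC 2 thus goes against its label, and the counts of members that passed are also given without it. Counts of groups that do not overlap, counts at the lowest value, shares of the summed level and results for related genes include it. Of the 5 LSK sort markers Ly6a, Kit, Cd34, Procr and Mecom, 4 or 5 were at the lowest value in each KO LSC library and 2 or 3 in each WT LSC library, and in none of the LSK, MCP or Veh libraries. Their summed level was 0.015 to 1.84 RPKM in KO LSC and 3.17 to 67.2 RPKM in WT LSC, against 858 to 959 RPKM in KO LSK and 1075 to 1705 RPKM in WT LSK.

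Promoter sequences are shown for 4 members on which results below turn. Ndufb4 and Ndufa5 passed the test in the drug comparison, Sdhd was at the lowest value in every LSC library of the CD93 experiment, and Ndufa11 separated KO LSC from WT LSC. The sequences are from RefSeq on GRCm38.p6 and run 5′ to 3′ from 250 bases before to 50 bases after the gene start. Capitals mark letters that match the motifs GCGCANGCG of the factor NRF1 or CCGGAAG of the factor GABPA on either strand, with matches that overlap counted as 1 site. The regions are chr16:37654319-37654618 on the minus strand for Ndufb4, chr6:24527477-24527776 on the minus strand for Ndufa5, chr9:50603800-50604099 on the minus strand for Sdhd and chr17:56717512-56717811 on the plus strand for Ndufa11.
Ndufb4: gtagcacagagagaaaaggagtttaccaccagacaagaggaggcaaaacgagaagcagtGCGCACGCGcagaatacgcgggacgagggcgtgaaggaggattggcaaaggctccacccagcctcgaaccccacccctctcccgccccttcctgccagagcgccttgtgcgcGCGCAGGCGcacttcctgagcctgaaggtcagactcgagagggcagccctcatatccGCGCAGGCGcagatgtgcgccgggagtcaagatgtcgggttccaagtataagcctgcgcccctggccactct
Ndufa5: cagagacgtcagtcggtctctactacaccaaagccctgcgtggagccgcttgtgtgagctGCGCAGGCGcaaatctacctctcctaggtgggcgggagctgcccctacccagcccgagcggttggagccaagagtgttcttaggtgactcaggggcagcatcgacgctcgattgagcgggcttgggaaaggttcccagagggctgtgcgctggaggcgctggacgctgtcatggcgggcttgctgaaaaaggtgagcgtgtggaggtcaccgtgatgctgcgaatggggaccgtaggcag
Sdhd: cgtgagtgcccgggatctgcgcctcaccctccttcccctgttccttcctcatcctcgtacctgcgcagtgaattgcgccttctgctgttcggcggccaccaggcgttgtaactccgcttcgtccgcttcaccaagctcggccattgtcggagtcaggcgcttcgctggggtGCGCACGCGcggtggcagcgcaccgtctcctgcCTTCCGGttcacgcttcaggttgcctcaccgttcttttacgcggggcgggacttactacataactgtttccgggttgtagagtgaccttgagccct
Ndufa11: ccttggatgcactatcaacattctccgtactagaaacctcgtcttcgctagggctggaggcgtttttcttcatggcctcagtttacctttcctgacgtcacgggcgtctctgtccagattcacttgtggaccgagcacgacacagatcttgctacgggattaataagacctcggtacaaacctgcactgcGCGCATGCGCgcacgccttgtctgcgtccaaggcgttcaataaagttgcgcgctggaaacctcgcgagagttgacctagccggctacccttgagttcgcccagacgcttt

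The Ndufb4 promoter held 3 NRF1 matches, which begin at -191, -79 and -22 from the start. Ndufa5 and Ndufa11 held 1 each, at -190 and -60, and Sdhd held 1 NRF1 match at -79 and 1 GABPA match at -46, which reads CTTCCGG because it lies on the other strand. A promoter was at hand for 68 of the 82 members. NRF1 letters stood in 20 of the 68 (29.4%), against 7.03% of 27025 promoters of all genes. GABPA letters stood in 16 (23.5%, against 9.93%), and AAGATGGCG, the motif of YY1, in 8 (11.8%, against 1.64%). At least 1 of the 3 motifs was found in 36 members, 52.9%, against 16.5% of all promoters. The 4 promoters shown all hold a match and do not stand for the members that passed. Of members lower in KO LSC against WT LSC, 3 with a motif and 3 without one passed, the latter being Cox6b2, Ndufb11 and Ndufa10. By complex, members with at least 1 motif were 16 of 31 in complex I, 3 of 3 in complex II, 3 of 5 in complex III, 3 of 13 in complex IV and 11 of 16 in complex V. A match describes the letters in this window and says nothing of binding.

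The members spread over 19 chromosomes, and their transcripts were 360 to 3171 nt long with a median of 772.5 nt, in GENCODE annotation of GRCm38. Of the 82, 25 overlap another listed gene, among them Ndufb11 with Rbm10 and Cox6c with Vps13b, both on the opposite strand, and also Ndufa10, Ndufa11, Ndufs1 and Atp5l. On that build Ndufb11 lies at chrX:20615326-20617619 and Ndufs8 at chr19:3908863-3912774, both on the minus strand, and Sdhc at chr1:171127165-171150603 and Uqcrfs1 at chr13:30540308-30545362, also on the minus strand. Since the sources do not state that counting used strand, reads of such pairs cannot be told apart.

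**Figure D1:**
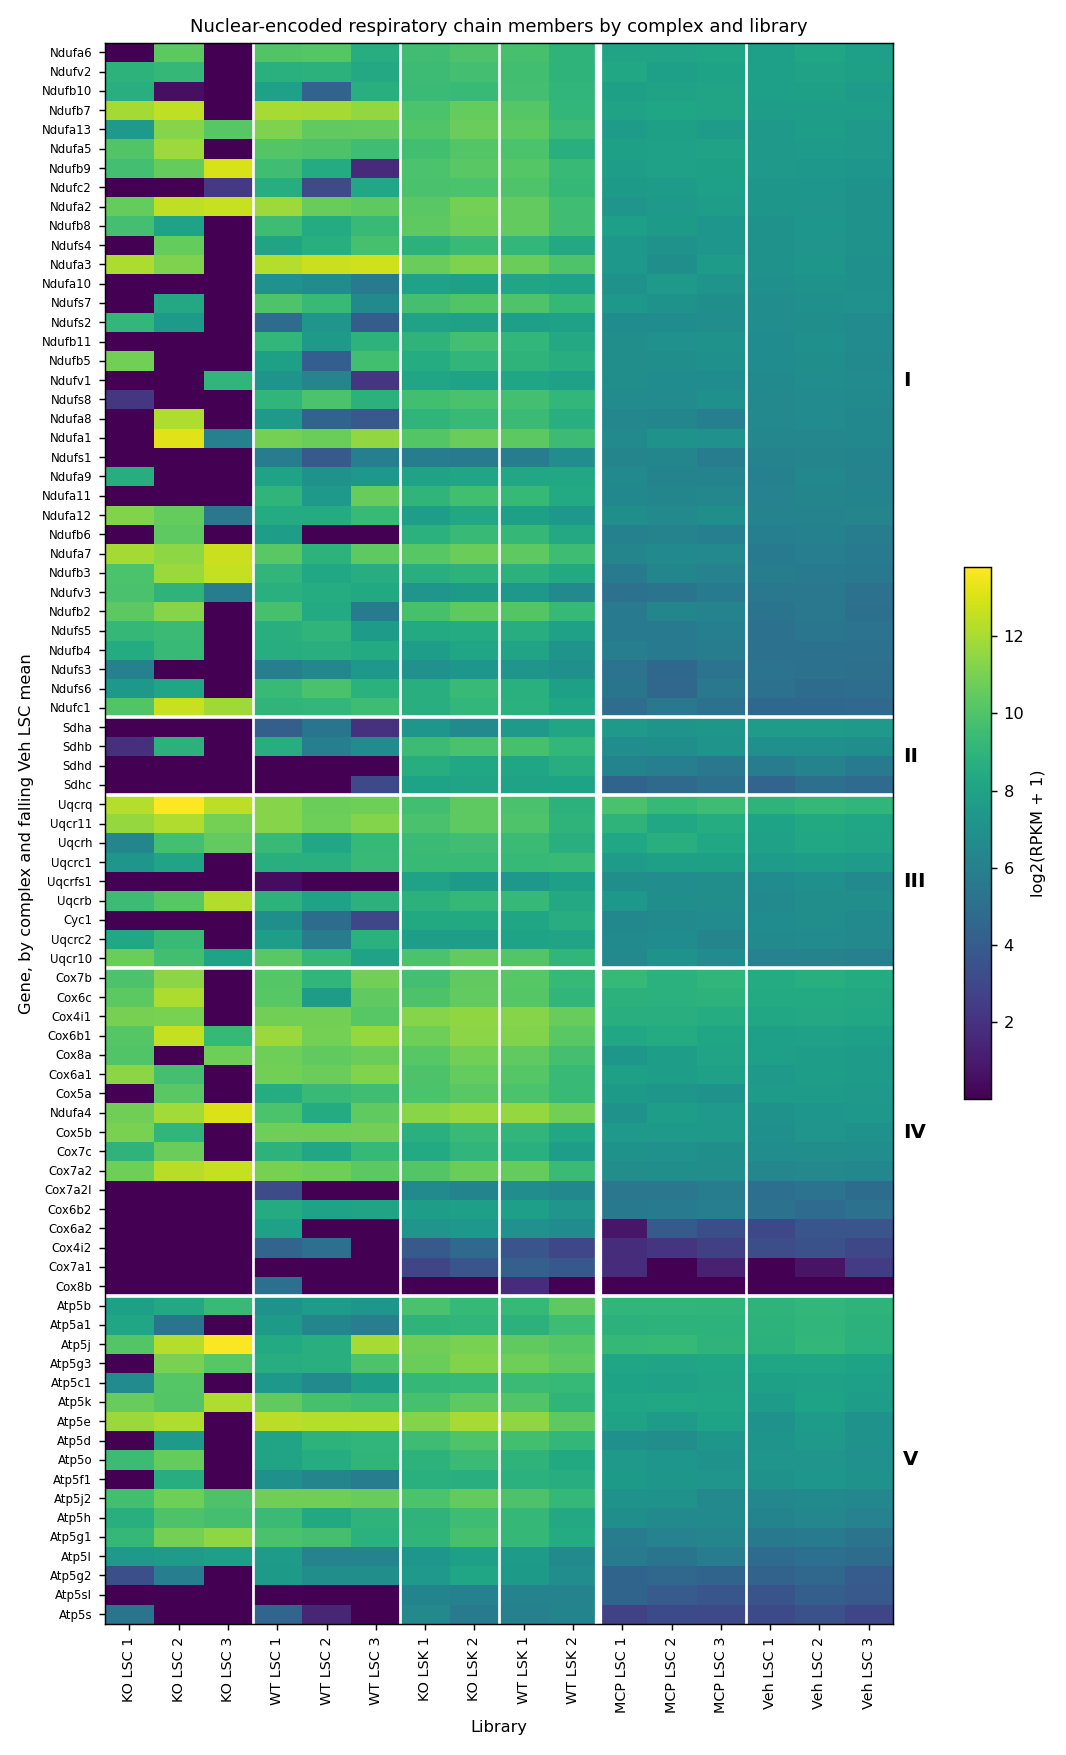
Level of the 82 members (rows, by complex and falling Veh LSC mean) in each of the 16 libraries (columns) as log2(RPKM + 1), with darker cells lower. The darkest cells are members at the lowest value: 24 to 54 members in each KO LSC library, 4 to 10 in each WT LSC library and at most 2 in every other library. The broad white line parts the 2 experiments, whose levels are not compared with each other.

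In vehicle-treated LSCs the chain was expressed throughout, at levels that differed more between subunits than between complexes. The median member level was 99.3 RPKM for complex I, 88.9 for complex II, 106 for complex III, 134 for complex IV and 140.0 for complex V. In complex I, the accessory subunits Ndufa6 and Ndufc1 were the highest and the lowest, at 239 ± 33.3 and 24.6 ± 1.10 RPKM in Veh LSC (SD, n = 3). In complex II, Sdha, the flavoprotein that oxidises succinate, averaged 184 ± 7.95 RPKM and Sdhc, a membrane anchor, 27.5 ± 5.73 RPKM in Veh LSC. These partners are needed in equal number in the enzyme, and their messages differed 6.68-fold.

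Complex III ran from Uqcrq, a small subunit at 539 ± 33.2 RPKM, to Uqcr10, another small subunit at 67.5 ± 3.66 RPKM, in Veh LSC (SD, n = 3). Complex IV was led by Cox7b at 377 ± 34.7 RPKM, and Cox8b, the muscle isoform of Cox8, was at the lowest value in all 6 drug libraries. Complex V ran from Atp5b, the catalytic beta subunit at 521 ± 28.6 RPKM, to Atp5s at 7.85 ± 1.65 RPKM in Veh LSC. In WT LSK, which stands in the other table, complex II was again the lowest by its median, at 268 and 329 RPKM, and complex IV the highest in both libraries but with a wide gap between them, at 942 and 547 RPKM.

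Metoclopramide went with higher messages of a subset of small subunits. In MCP LSC against Veh LSC, 8 of the 81 members tested passed as higher and 0 as lower, by limma on log2(RPKM + 1) with p-values adjusted over all 14005 features at 0.05. Over all features 0.521% passed as higher and 1.8% as lower. The 8 are the complex I accessory subunits Ndufa5, Ndufa7, Ndufb4, Ndufb7 and Ndufb9, the complex IV subunits Cox6c and Cox7a2, and Atp5l, subunit g of ATP synthase. Their folds ran from 1.26 to 1.64. Without adjustment, 35 of the 81 had limma p under 0.05 in either direction, against 3226 of the 14005 features.

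Cox6c had 464, 447 and 478 RPKM in MCP LSC, against 341, 349.6 and 315 RPKM in Veh LSC. Every MCP LSC library lay above every Veh LSC library, and the difference was 0.47 ± 0.07 on the log2 scale (SE; limma adjusted p = 0.0247). Ndufb4 had 58.1, 48.8 and 54.3 RPKM in MCP LSC, against 34.3, 36.2 and 34.5 RPKM in Veh LSC, again with no overlap. Its fold was 1.52 (limma adjusted p = 0.0322). Atp5l, which sits where ATP synthases pair up in the membrane, had 49.6, 40.7 and 56.0 RPKM in MCP LSC and 27.3, 31.7 and 28.3 RPKM in Veh LSC. It had the largest fold of the 8, at 1.64 (limma adjusted p = 0.0466), and its groups did not overlap.

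Ndufa7 had 75.6, 90.9 and 89.5 RPKM in MCP LSC and 48.3, 59.6 and 52.6 RPKM in Veh LSC, a fold of 1.59 (limma adjusted p = 0.0361). Ndufb9 had 213, 235 and 231 RPKM in MCP LSC and 166, 163 and 148 RPKM in Veh LSC (fold 1.42, limma adjusted p = 0.0264). Both sets of 3 libraries were apart from each other for each gene. Ndufa5 had 231, 241 and 243 RPKM in MCP LSC and 169, 186 and 167 RPKM in Veh LSC (fold 1.37, limma adjusted p = 0.0281). For the other 2, Cox7a2 had 109.6, 114 and 112 RPKM in MCP LSC and 83.2, 90.2 and 84.6 RPKM in Veh LSC, and Ndufb7 had 246, 272 and 263 RPKM in MCP LSC and 204, 212 and 201 RPKM in Veh LSC. These were the smallest of the 8 differences, at folds of 1.3 and 1.26, with limma adjusted p of 0.0445 and 0.0495.

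The members' differences in the drug comparison had a median of 0.20 on the log2 scale, against -0.18 over all features tested. In 63 of the 81 the difference was positive (28.2% of all features), and in 34 the MCP LSC values all lay above the Veh LSC values (4.91% of all features). By complex, the members that passed were 5 of 35 in complex I, 0 of 4 in complex II, 0 of 9 in complex III, 2 of 16 in complex IV and 1 of 17 in complex V. All 5 in complex I were accessory subunits, of 28 tested, with 0 of the 7 catalytic core subunits. The median differences were 0.20 for complex I, 0.30 for complex III, 0.32 for complex IV and 0.19 for complex V, and -0.05 for complex II. Complex III made up 15.9% to 17.8% of the summed member level in MCP LSC and 15.0% to 15.9% in Veh LSC, and complex II 2.57% to 2.76% in MCP LSC and 3.36% to 3.52% in Veh LSC. No test of one complex against another was made.

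No gene of complex II passed, and 1 of the 4 had a positive difference. Sdha had 175, 141 and 154 RPKM in MCP LSC and 189, 188 and 175 RPKM in Veh LSC, a difference of -0.24 ± 0.09 (SE; limma adjusted p = 0.189). Sdhb, the iron-sulfur subunit, had 107, 116 and 139 RPKM in MCP LSC and 119, 119 and 115 RPKM in Veh LSC. Sdhc and Sdhd, the membrane anchors, also overlapped between the groups, with 21.1, 25.8 and 32.9 RPKM and 72.6, 58.5 and 44.1 RPKM in MCP LSC, against 21.6, 33.1 and 27.8 RPKM and 57.5, 71.3 and 51.6 RPKM in Veh LSC.

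**Figure D2:**
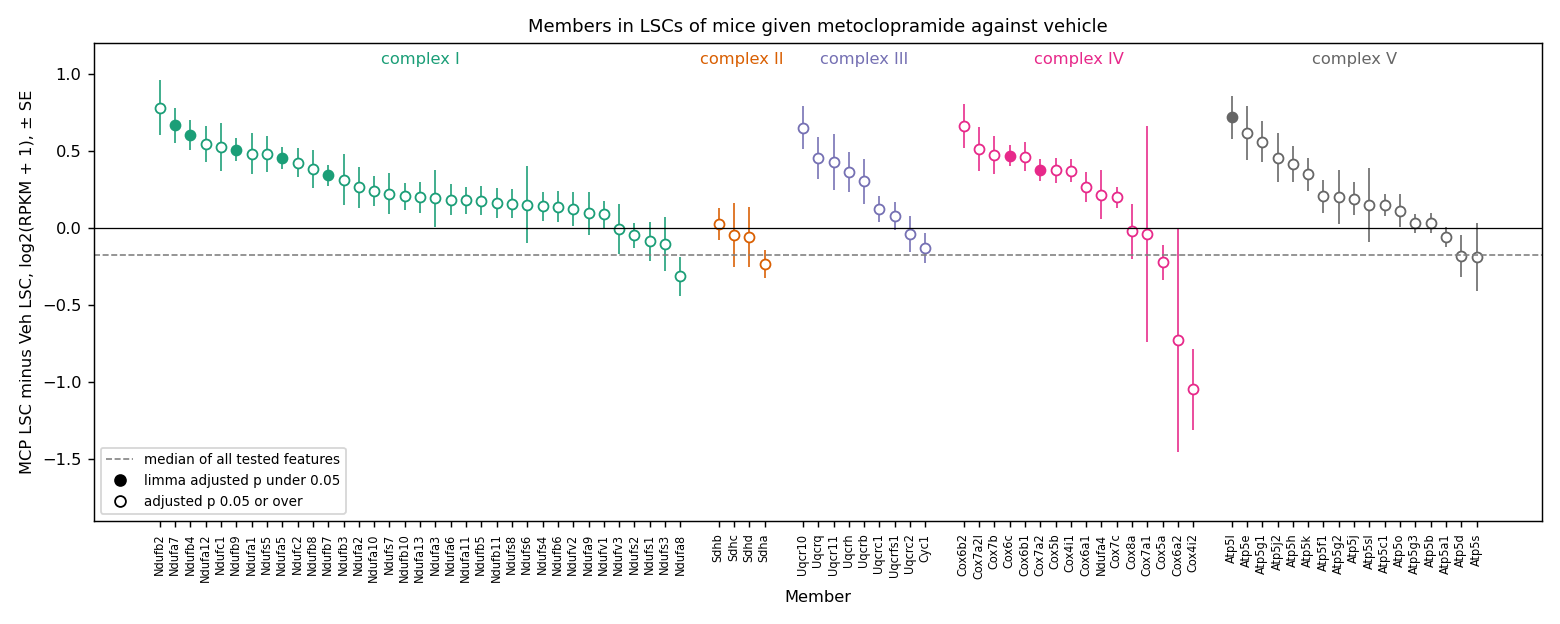
Difference between MCP LSC and Veh LSC on the log2(RPKM + 1) scale for 81 members (points, sorted within complex), with its standard error (bars). Filled points are the 8 members with a limma adjusted p under 0.05, all above 0, and the dashed line is the median of all tested features at -0.18.

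Among tissue isoforms of complex IV, Cox4i2, the isoform of subunit 4 known for induction by low oxygen, lay below 0 in the difference. Cox4i2 had 2.50, 3.29 and 5.05 RPKM in MCP LSC, against 8.44, 9.63 and 7.0 RPKM in Veh LSC, and the groups did not overlap. The difference of -1.05 ± 0.26 did not pass (SE; limma adjusted p = 0.0796). As a share of Cox4i1 and Cox4i2 together it was 0.609% to 1.36% in MCP LSC and 2.32% to 2.88% in Veh LSC. Ndufa8, a complex I accessory subunit named after its values were seen, was the other of 2 members whose MCP LSC values all lay below those of Veh LSC (25.6% of all features), with 81.9, 78.0 and 60.6 RPKM in MCP LSC and 88.6, 99.1 and 85.9 RPKM in Veh LSC.

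Atp5g1, Atp5g2 and Atp5g3 encode the same mature ring protein of ATP synthase with different import signals. Atp5g1 made up 16.5% to 19.9% of their sum in MCP LSC and 12.6% to 14.3% in Veh LSC. Atp5g3 made up 74.5% to 77.6% in MCP LSC and 79.1% to 82.6% in Veh LSC. Neither range overlapped its partner, and the difference for Atp5g1 itself did not pass (0.56 ± 0.13, SE; limma adjusted p = 0.0731). Cox6b2, the testis-type isoform of Cox6b, was 12.3% to 17.1% of its pair in MCP LSC and 10.1% to 13.8% in Veh LSC. Cox7a2l relative to Cox7a2 gave 27.1% to 32.9% in MCP LSC and 25.2% to 29.1% in Veh LSC, which overlap. Cox6a2 and Cox7a1, both muscle isoforms, were low and scattered, at 0.803, 14.1 and 8.92 RPKM and 2.43, 0.001 and 1.44 RPKM in MCP LSC, against 6.92, 11.3 and 11.5 RPKM and 0.001, 0.663 and 4.49 RPKM in Veh LSC.

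Other genes of the pathway were tested in the same fit. All 13 mitochondrially encoded subunits had positive differences, and 2 passed as higher, ATP8 of complex V (0.35, limma adjusted p = 0.0419) and ND3 of complex I (0.42, limma adjusted p = 0.0423). Of 42 assembly factors 1 passed, Ndufaf6 of complex I, with 26.6, 31.4 and 35.7 RPKM in MCP LSC and 18.2, 19.0 and 18.4 RPKM in Veh LSC. Of 17 regulators of respiratory genes 1 passed as lower, the transcription factor Myc, with 129, 135 and 163 RPKM in MCP LSC and 203, 211 and 196 RPKM in Veh LSC. By limma 0 of 14 tricarboxylic acid cycle genes and 0 of 22 electron carriers and related genes passed, and their medians were -0.02 and 0.00 on the log2 scale. Members with and without 1 of the 3 promoter motifs had medians of 0.18 (36 members, 4 passed) and 0.22 (31 members, 2 passed).

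Several measures moved with the drug groups. Myeloid progenitor markers (Mpo, Elane, Prtn3 and Ctsg) summed to 4588 to 4744 RPKM in MCP LSC and 3009 to 3251 RPKM in Veh LSC, with 4 of 4 higher by limma. LSK sort markers summed to 165 to 176 RPKM in MCP LSC and 234 to 239.7 RPKM in Veh LSC. Neutrophil markers summed to 255 to 365 RPKM in MCP LSC and 185 to 205 RPKM in Veh LSC. Of the 6 neutrophil markers tested, 3 had positive differences, 1 passed as higher and 0 as lower, and their median was -0.06. Macrophage and monocyte markers summed to 28.8 to 38.4 RPKM in MCP LSC and 38.9 to 49.0 RPKM in Veh LSC, with 2 of 5 at the lowest value in every MCP LSC library. Fewer features were above the lowest value in MCP LSC, 15587 to 16447, than in Veh LSC, 19554 to 20014. Shorter transcripts had higher differences: across features the rank correlation of length with the difference was -0.24, and across the 81 members -0.39, given as a description, since genes of the same libraries are not independent. In features under 800 nt, 2.48% passed as higher and 3.76% as lower, and in those of 2000 nt and over 0.0866% as higher and 1.94% as lower. The 8 members that passed have transcripts of 528 to 971 nt. The part of these measures in the result was not tested, and in bulk samples fewer cells of a type and less RNA per cell cannot be told apart.

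The drug result rested on few libraries. Leaving out Veh LSC 1 or Veh LSC 3 left 0 members that passed, without Veh LSC 2 only Ndufa5 of the 8 passed, and without MCP LSC 3 only Cox6c of the 8 passed, beside Atp5j2, Cox6b1 and Cox4i1, while 46, 25, 79 and 303 features passed in those fits in that order. In the 6 fits that left out 1 library, 64 to 67 of 81 members were positive and the member medians were 0.18 to 0.27. With libraries scaled by their median ratio, 23 members passed as higher and 0 as lower. The share of all features that passed under this scaling is not given here, so the count has no background beside it.

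**Figure D3:**
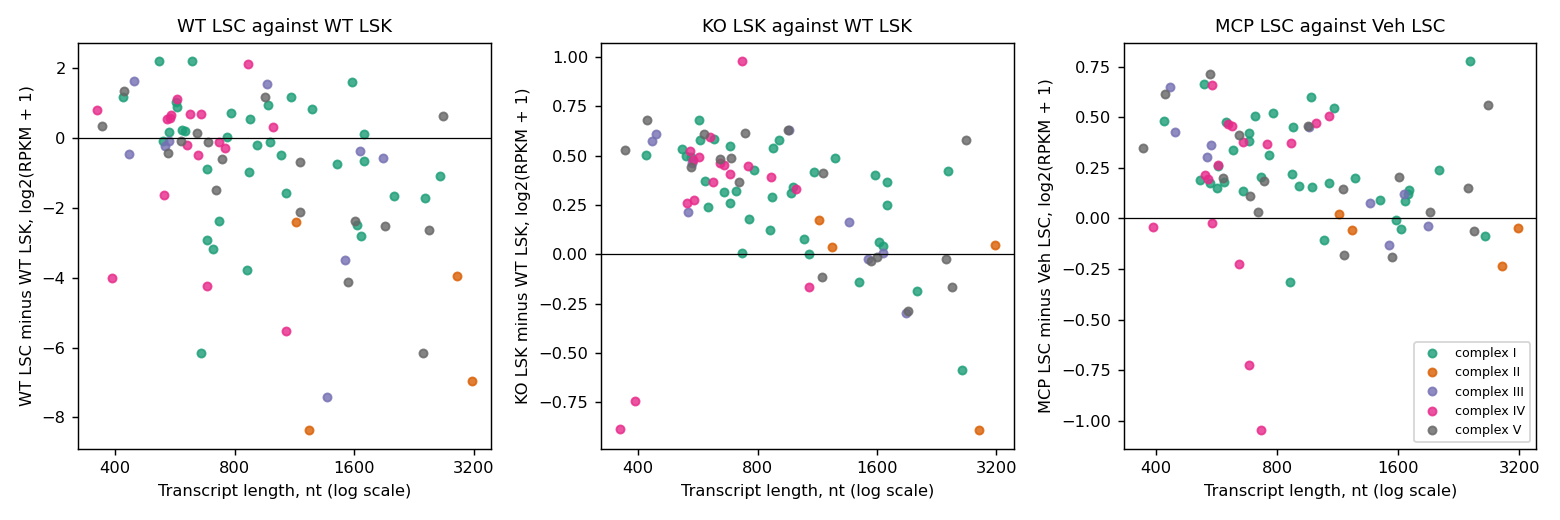
Difference on the log2(RPKM + 1) scale (vertical axes) against transcript length in nt (horizontal axes, log scale) for members of each complex, in WT LSC minus WT LSK, KO LSK minus WT LSK and MCP LSC minus Veh LSC. Longer members lay lower in each panel, with rank correlations of -0.45, -0.51 and -0.39 across members of the same libraries.

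In the leukemic cells of the CD93 experiment, genes of complex II were among the lowest members. In WT LSC against WT LSK, 1 of 82 members passed as higher and 9 as lower, where 1.45% and 42.3% of 13485 features passed in those directions. The 9 lower are Sdha, Sdhc and Sdhd of complex II, Cyc1 and Uqcrfs1 of complex III, Cox7a1 and Cox7a2l of complex IV, and Atp5b and Atp5sl of complex V. Complex II gave 3 of its 4 genes, against 0 of 35 in complex I, and its median difference was -5.46, against -0.13 in complex I, -0.36 in complex III, 0.31 in complex IV and -0.59 in complex V. The errors of this fit come from the spread in all 10 libraries of the experiment, KO LSC among them. A member that scattered in KO LSC could thus fail to pass here, and the counts by complex depend on libraries outside the comparison.

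Sdhd had 0.003 RPKM in all 6 LSC libraries, against 384 and 299 RPKM in KO LSK and 286 and 382 RPKM in WT LSK. Sdhc had 0.003, 0.003 and 7.26 RPKM in WT LSC, against 249 and 253 RPKM in WT LSK, and 0.003 RPKM in the 3 KO LSC libraries, against 253 and 266 RPKM in KO LSK. These are the anchors that hold the enzyme in the membrane and bind ubiquinone, and no LSC library of this experiment came near the LSK level. On the log2(RPKM + 1) scale, WT LSC minus WT LSK was -8.37 for Sdhd and -6.96 for Sdhc, values that depend on the added 1 (limma adjusted p = 4.52e-06 and 0.000442). Sdha had 17.0, 39.6 and 2.94 RPKM in WT LSC, against 173 and 277 RPKM in WT LSK (-3.95 ± 0.98, SE; limma adjusted p = 0.0119). Sdhb had 379, 58.5 and 103 RPKM in WT LSC and 880.0 and 567 RPKM in WT LSK, and its difference of -2.41 did not pass (limma adjusted p = 0.46).

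Complex II was 0.170% to 0.577% of the summed member level in WT LSC, against 2.56% to 3.75% in WT LSK. In KO LSC it was at most 0.352%, against 2.12% to 2.67% in KO LSK. Every LSC library of this experiment thus lay below every LSK library. The long transcripts of Sdha and Sdhc, 2900 and 3171 nt, are the 2 longest of the members, while Sdhd has 1231 nt.

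Uqcrfs1, the Rieske iron-sulfur protein of complex III, had 0.392, 0.003 and 0.003 RPKM in WT LSC, against 162 and 222 RPKM in WT LSK. Cyc1, the cytochrome that hands electrons from complex III to cytochrome c, had 116, 28.4 and 6.62 RPKM in WT LSC and 285 and 390.3 RPKM in WT LSK (-3.49 ± 1.10, SE; limma adjusted p = 0.034). Both carry a redox centre of the complex. Uqcr11, a small subunit, was the member that rose, with 2495, 1737 and 2398 RPKM in WT LSC and 1000.4 and 499.8 RPKM in WT LSK. The groups did not overlap, and the fold was 3.08 (limma adjusted p = 0.0301). Uqcrq had 2503, 1624 and 1701 RPKM in WT LSC and 907 and 467 RPKM in WT LSK, also without overlap, and did not pass (1.55 ± 0.57, SE; limma adjusted p = 0.0599).

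In complex V, Atp5b had 132, 191 and 149 RPKM in WT LSC, against 611 and 1329 RPKM in WT LSK (-2.53 ± 0.70, SE; limma adjusted p = 0.02). Atp5sl and the muscle isoform Cox7a1 had 0.003 RPKM in each of the 6 LSC libraries. In WT LSK, Atp5sl had 70.5 and 70.3 RPKM and Cox7a1 17.7 and 12.8 RPKM. Leaving out WT LSK 2 leaves 1 library of WT LSK, so no count is given. The differences were then -1.97 for Atp5b, -3.27 for Cyc1, -3.61 for Sdha and 1.12 for Uqcr11. Whether these 4 passed rested on WT LSK 2. In a fit of only the compared groups 8 members passed as higher and 10 as lower. The share of all features that passed in that fit is not given here, so these counts have no background beside them.

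Over all members the median difference between WT LSC and WT LSK was -0.25, against -1.94 over all features, and 27 of 82 had WT LSC values all below those of WT LSK, against 56.3% of features. In 17 members the WT LSC values all lay above, against 6.29% of features, among them Ndufa3, Cox5b, Atp5e and Ndufb7 (chosen after their values were seen). Ndufb7 had 4034, 3902 and 2997 RPKM in WT LSC and 1117 and 551 RPKM in WT LSK. None of the 7 core subunits of complex I had a positive difference (median -0.98), while 16 of 28 accessory subunits did (median 0.15), and no test of this contrast was made. The member median was 0.08 without WT LSK 1 and -0.61 without WT LSK 2.

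For genes around the chain the shares that passed as lower in WT LSC lay near the 42.3% of all features. Of 32 assembly factors 13 passed as lower, led by Tmem70 of complex V, Cox11 of complex IV and Ndufaf1 of complex I. Of 22 electron carriers and related genes 9 passed, led by Coq4, of 14 tricarboxylic acid cycle genes 6, led by Dlst, and of 18 regulators 9, led by Mtor, Gabpb1 and Peo1. Yy1 was the regulator that rose, with 112, 178 and 88.5 RPKM in WT LSC and 11.9 and 5.96 RPKM in WT LSK. Of the 13 mitochondrially encoded subunits 4 passed as higher and 0 as lower, among them ND1 (2.30, limma adjusted p = 0.00954) and ND4 (2.34, limma adjusted p = 0.0126). Neutrophil markers summed to 63610 to 109500 RPKM in WT LSC and 1966 to 5615 RPKM in WT LSK, and LSK sort markers fell in 5 of 5. Of the 6 neutrophil markers tested, 5 had positive differences, 3 passed as higher and 0 as lower. Myeloid progenitor markers were higher in 4 of 4, and macrophage and monocyte markers summed to 11230 to 23890 RPKM in WT LSC and 1749 to 3187 RPKM in WT LSK. Of the 5 macrophage and monocyte markers, 4 had positive differences, 3 passed as higher and 0 as lower. The part of these markers in the result was not tested.

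**Figure D4:**
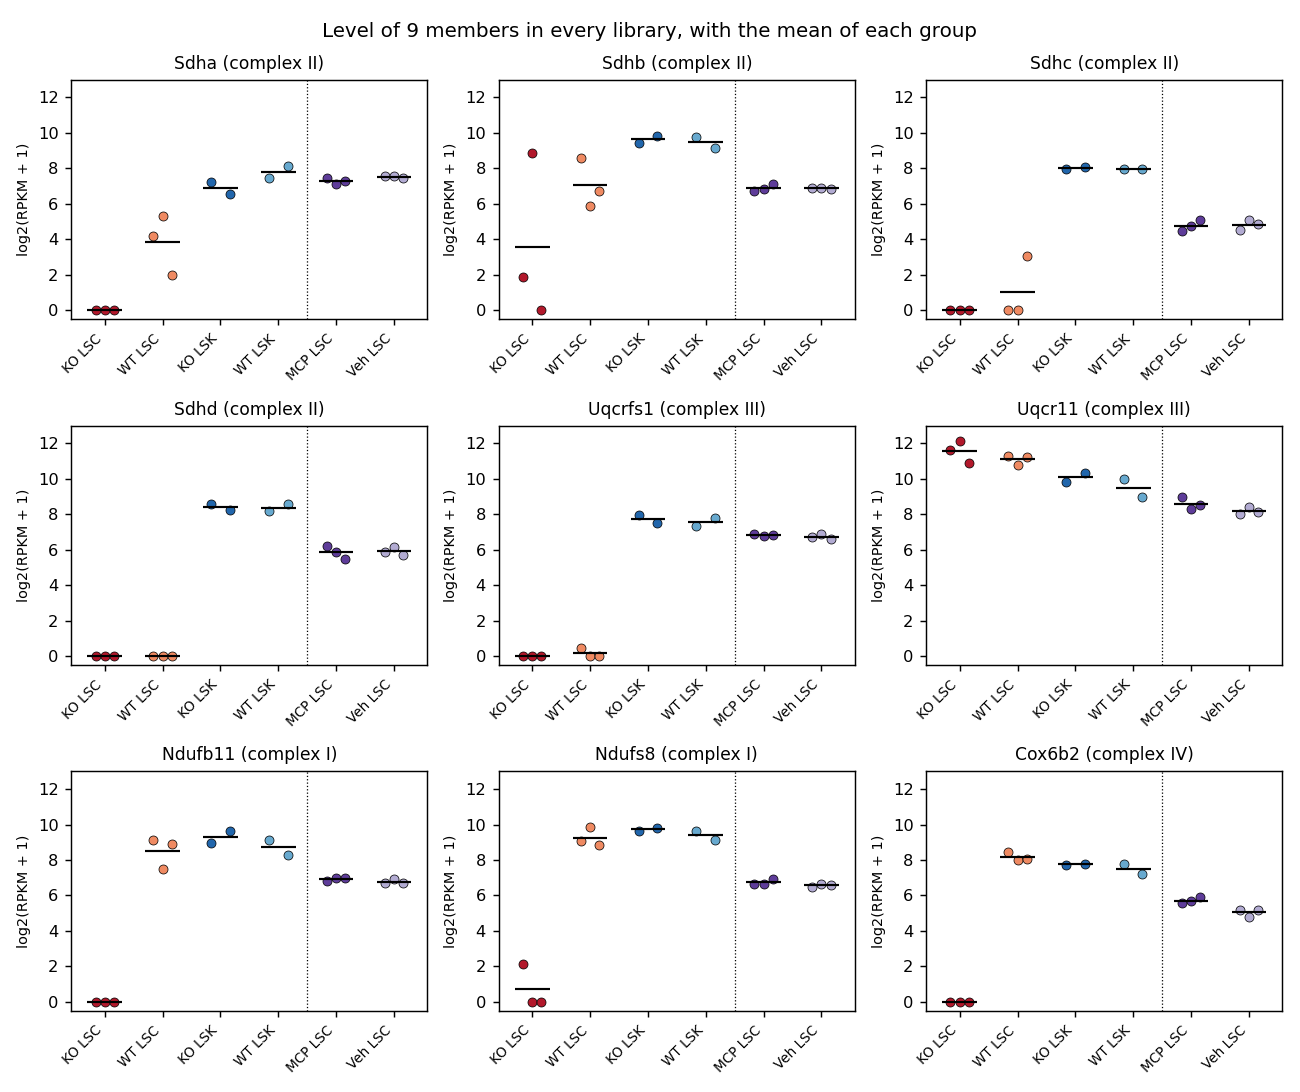
Level of 9 members as log2(RPKM + 1) in every library (points) with the group mean (bars), in the 6 groups. Sdhd lies at 0 in the LSC libraries of the CD93 experiment and Sdhc does in all of them but WT LSC 3, both against about 8 in LSK, Uqcr11 is high in all groups, and Ndufb11, Ndufs8 and Cox6b2 lie at 0 in KO LSC, except Ndufs8 in KO LSC 1, and above 4 in every other group. The dotted line parts the 2 experiments.

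In KO LSC against KO LSK, 4 of 82 members passed as higher and 21 as lower, where 0.564% and 61.7% of features passed in those directions. The 4 higher are Uqcrq and Uqcr11 of complex III and the complex I accessory subunits Ndufc1 and Ndufb3. Uqcrq had 4889.6, 14142 and 5543 RPKM in KO LSC and 773 and 1313 RPKM in KO LSK, a fold of 7.2 (limma adjusted p = 0.0032). Ndufc1 had 1071, 6356 and 3626 RPKM in KO LSC and 417 and 562 RPKM in KO LSK, and Ndufb3 942, 3341 and 6142 RPKM in KO LSC and 404 and 488 RPKM in KO LSK. Each of these had KO LSC values all above those of KO LSK, as did 7 members in all (1.22% of features).

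The 21 lower members include 8 of complex I, 3 of complex II, 2 of complex III, 5 of complex IV and 3 of complex V, and in 31 members the KO LSC values all lay below those of KO LSK (75.2% of features). They were led by Atp5sl, Sdhd, Uqcrfs1, Cox7a1, Cox6b2 and Ndufb11, which were at 0.003 RPKM in all 3 KO LSC libraries. Of the 82 members, 16 were never above the lowest value in KO LSC, 15 were above it in 1 library, 28 in 2 and 23 in 3. Over all features, only 4.62% to 11.2% were above it in a KO LSC library. Members never above it had a median LSK level of 186 RPKM and a median transcript of 1153.5 nt. Members above it in all 3 had 924 RPKM and 659 nt. None of complex II was above the lowest value in all 3, against 5 of 9 in complex III, 7 of 17 in complex V, 8 of 35 in complex I and 3 of 17 in complex IV. Without the library labelled KO LSC 2, 3 members passed as higher and 29 as lower, where 59.6% of features passed in either direction. Ndufb3 and Uqcr11 (limma adjusted p = 0.0508 and 0.0791) no longer passed as higher, nor Cox4i2 and Ndufs3 as lower, and Ndufa7 passed beside Uqcrq and Ndufc1. Without KO LSC 3 the counts were 7 and 20, where 55.8% of features passed in either direction. Neutrophil markers summed to 31520 to 55000 RPKM in KO LSC and 2683 to 4381 RPKM in KO LSK, and myeloid progenitor markers to 16650 to 33530 RPKM in KO LSC and 2469 to 3177 RPKM in KO LSK. Of the 6 neutrophil markers tested, 3 passed as higher and 1 as lower, and 2 of the 7 listed were at the lowest value in every KO LSC library. Of the 4 myeloid progenitor markers 4 passed as higher. Macrophage and monocyte markers summed to 11520 to 31330 RPKM in KO LSC and 3761 to 4555 RPKM in KO LSK. Of these 5, 3 had positive differences, 2 passed as higher and 0 as lower, and 1 was at the lowest value in every KO LSC library. Erythroid markers summed to 1719 to 2569 RPKM in KO LSC and 206 to 235 RPKM in KO LSK. Of the 3 erythroid markers, 2 were at the lowest value in every KO LSC library. By limma 1 of the 3 passed as higher and 1 as lower, and their median was -1.64. The part of these markers in the result was not tested. Leaving out KO LSK 1 or KO LSK 2 leaves 1 library of KO LSK, so no count is given. The member medians were then -3.76 and -3.34, against -3.60 in the full fit. Whether Ndufb3, Ndufc1 and Uqcr11 passed as higher rested on having both KO LSK libraries.

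**Figure D5:**
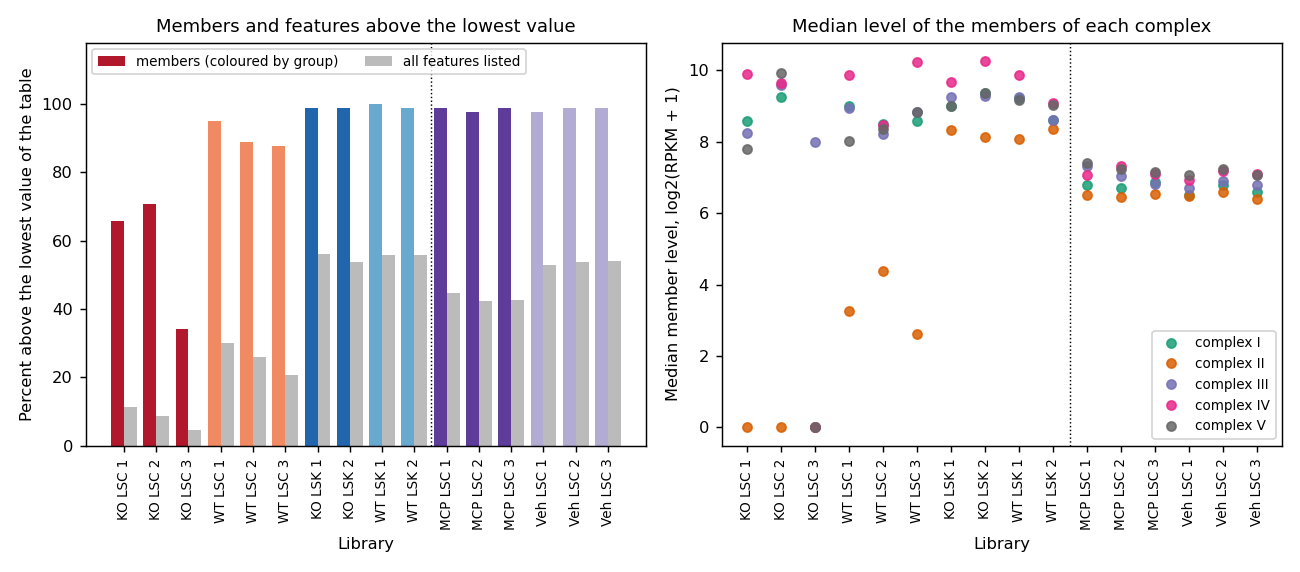
Left, percent of members (coloured bars) and of all listed features (grey bars) above the lowest value of their table in each of the 16 libraries; right, median level of the members of each complex as log2(RPKM + 1). Members were above the lowest value more often than features in every library, and complex II (orange) was the lowest of the complexes in the LSC libraries of the CD93 experiment, except in KO LSC 3 where 4 medians lay at the lowest value.

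The libraries labelled KO LSC listed most features, and 24 to 54 of the 82 members, at the lowest value. Members at that value in all 3 of them numbered 4 of 35 in complex I, 3 of 4 in complex II, 2 of 9 in complex III, 6 of 17 in complex IV and 1 of 17 in complex V. Since the library labelled KO LSC 2 lists Cd93 at 44.3 RPKM and 2 of the WT LSC libraries at 0.003 RPKM, the comparison is one of labels. In KO LSC against WT LSC, 1 of 82 members passed as higher and 8 as lower, where 0.0742% and 8.74% of features passed in those directions. The 8 lower are the complex I accessory subunits Ndufb11, Ndufa10 and Ndufa11, its core subunits Ndufs8 and Ndufs1, which carry iron-sulfur clusters, then Sdha, Cyc1 and Cox6b2. Each had 0.003 RPKM in all 3 KO LSC libraries, except Ndufs8 in KO LSC 1. The median difference of the members was -2.13, against -0.77 over all features. In 15 members the KO LSC values all lay below those of WT LSC (14.1% of features).

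Ndufb11 had 0.003 RPKM in each KO LSC library, against 557, 181 and 476 RPKM in WT LSC, 493 and 798 RPKM in KO LSK and 559.7 and 314 RPKM in WT LSK. Ndufs8, a core subunit, had 3.47, 0.003 and 0.003 RPKM in KO LSC and 529, 947 and 459 RPKM in WT LSC, against 789 and 908 RPKM in KO LSK and 807 and 554 RPKM in WT LSK. For both genes the WT LSC values spread around those of LSK cells and the KO LSC values stood apart below them. On the log2(RPKM + 1) scale KO LSC minus WT LSC was -8.51 ± 0.74 for Ndufb11 and -8.54 ± 0.82 for Ndufs8 (SE; limma adjusted p = 0.000536 and 0.000617), values that depend on the added 1.

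Ndufa11 had 0.003 RPKM in each KO LSC library and 512, 168 and 1559.9 RPKM in WT LSC (-9.0 ± 0.92, SE; limma adjusted p = 0.0007). Ndufa10 had 0.003 RPKM in each KO LSC library and 125, 103 and 47.7 RPKM in WT LSC (limma adjusted p = 0.000689). Its WT LSC values lay below those of both LSK groups, at 250.4 and 226 RPKM in KO LSK and 287 and 256 RPKM in WT LSK. Cox6b2 had 0.003 RPKM in each KO LSC library and 353, 250.4 and 261 RPKM in WT LSC (limma adjusted p = 0.000498), against 213 and 220.5 RPKM in KO LSK and 217 and 148 RPKM in WT LSK. Cox6b1, its widely expressed counterpart, had 1121, 6130.4 and 599 RPKM in KO LSC and 3357, 1941 and 3116 RPKM in WT LSC.

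Ndufs1, the largest core subunit of complex I, had 0.003 RPKM in each KO LSC library and 56.3, 13.9 and 61.6 RPKM in WT LSC (limma adjusted p = 0.0022). Cyc1 and Sdha, already low in WT LSC, were at the lowest value in each KO LSC library (limma adjusted p = 0.0185 and 0.0329). Ndufa7, an accessory subunit, was the member that rose, with 3858, 2795 and 6512 RPKM in KO LSC and 1215, 475 and 1337 RPKM in WT LSC. Its groups did not overlap, and the fold was 4.49 (limma adjusted p = 0.0493). In 8 members the KO LSC values all lay above those of WT LSC (0.564% of features), among them Ndufb3, Uqcrq and Ndufc1 (chosen after their values were seen).

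The 6 members Cox6b2, Ndufb11, Ndufs8, Ndufa10, Ndufa11 and Ndufs1 passed in each of the 6 fits that left out 1 LSC library. Ndufa7 passed in 1 of the 6, Sdha in 2 and Cyc1 in 5. Without the library labelled KO LSC 2, 0 members passed as higher and 17 as lower, and the member median was -3.17. In that fit 8.94% of features passed in either direction. Without KO LSC 1, 3 members passed as higher and 11 as lower, where 11.6% of features passed in either direction. Without KO LSC 3, the library with the fewest features above the lowest value, Ndufa12 alone passed as higher and 6 members as lower. The member median was then -0.11, and 7.15% of features passed in either direction. The number of features registered, 1230 to 2967 in KO LSC and 5525 to 7956 in WT LSC, moved with the genotype. So did neutrophil markers, which summed to 31520 to 55000 RPKM in KO LSC and 63610 to 109500 RPKM in WT LSC, with S100a8 lower by limma. The part of either in the result was not tested.

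Of 32 assembly factors, 26 to 32 were at the lowest value in a KO LSC library and 10 to 21 in a WT LSC library, and of 18 regulators 13 to 18 in a KO LSC library and 6 to 12 in a WT LSC library. Ndufaf2, an assembly factor of complex I, and Yy1 had the smallest p-values of their lists. Ndufaf2 had 0.003 RPKM in each KO LSC library and 508, 603 and 376 RPKM in WT LSC, and Yy1 had 0.003 RPKM in each KO LSC library and 112, 178 and 88.5 RPKM in WT LSC. These were 1 of 2 assembly factors lower of 32, the other being Coa3, and 1 of 18 regulators, against 8.74% of all features. Of 22 electron carriers and related genes 4 were lower, led by Coq7 of ubiquinone synthesis, Etfa and Slc25a4, and 1 was higher, Atpif1, the inhibitor of ATP synthase. Atpif1 had 11528, 10535 and 17238 RPKM in KO LSC and 4391, 3311 and 4935 RPKM in WT LSC (1.62 ± 0.33, SE; limma adjusted p = 0.0201). Suclg1 was lower among tricarboxylic acid cycle genes, and of 13 mitochondrially encoded subunits ATP8 was lower.

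In naive cells no member passed, which does not show that the groups were alike, since the errors were wide. These errors come from the spread in all 10 libraries of the CD93 experiment, LSC libraries among them, and not from the LSK libraries alone. Uqcrc1, chosen after its values were seen, had 614 and 619 RPKM in KO LSK and 597 and 634 RPKM in WT LSK. Its difference was 0.004 ± 2.35 (SE). In KO LSK against WT LSK, 0 of 82 members passed by limma, where 1.83% of features passed in either direction. Without adjustment, 1 member had limma p under 0.05, against 1173 of the 13485 features. That member was Cox7a1, with 6.42 and 11.4 RPKM in KO LSK and 17.7 and 12.8 RPKM in WT LSK (-0.74 ± 0.30, SE; limma adjusted p = 0.519). Its share of Cox7a1 and Cox7a2 together was 0.576% to 0.675% in KO LSK and 1.19% to 1.86% in WT LSK. The next smallest p-values were those of Atp5j2, subunit f of ATP synthase, and Uqcr11. Atp5j2 had 943 and 1433 RPKM in KO LSK and 991 and 569.9 RPKM in WT LSK (0.63 ± 0.54, SE), and Uqcr11 899 and 1297 RPKM in KO LSK and 1000.4 and 499.8 RPKM in WT LSK. In both, WT LSK 2 was the lowest library and the groups overlapped.

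The difference between KO LSK and WT LSK was positive in 67 of 82 members (42.5% of features), with a median of 0.37, against -0.11 over all features. It was 44 of 82 and a median of 0.04 without WT LSK 2, and the median was -0.06 with libraries scaled by their median ratio. In 3 members the KO LSK values all lay above (14% of features): Cox4i2, Cox6a2 and Atp5j, named after their values were seen. In 6 they all lay below (20.5% of features), among them Sdha, with 150.0 and 91.7 RPKM in KO LSK and 173 and 277 RPKM in WT LSK. Among members the rank correlation of the difference with transcript length was -0.51, against -0.23 over features.

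The difference between libraries labelled KO and WT was also compared between LSC and LSK. The difference of the 2 differences passed as lower for Ndufb11, Ndufs8, Ndufa11, Ndufa10 and Cox6b2 and as higher for none, where 5.15% and 0.934% of features passed in those directions. These 5 are 6.1% of the 82 members, a share near that of all features. For Ndufb11 it was -9.08 ± 1.17 on the log2(RPKM + 1) scale (SE; limma adjusted p = 0.00802) and for Ndufs8 -8.88 ± 1.30 (SE; limma adjusted p = 0.0101). All 5 passed in each fit that left out 1 LSC library. Without the library labelled KO LSC 2, 11 members passed, where 5.29% of features passed in either direction.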

How the data were processed

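RNA of sorted cells was amplified with SMART-Seq v4, and 1 table of values per sample was deposited for 16 samples. The authors' values were read as RPKM, since they are not whole and their low steps depend on the gene; the labels name no unit. Genome build GRCm38 (mm10) was used, per the submitters' processing notes. Which aligner, counter and annotation were used is not given in the sources used here. Since these files hold no counts, no count model was run and the depth is unknown.

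Values were taken as log2(RPKM + 1) and fitted with limma 3.58.1 in R 4.3.3 (lmFit, eBayes with trend) over all features of at least 1 RPKM in at least 2 libraries, two-sided, with Benjamini-Hochberg adjustment over all tested features and a threshold of 0.05. The CD93 experiment was fitted as 1 model of 10 libraries, and the drug experiment as another of 6, both without a replicate block. When tested on simulated data, the CD93 fits recovered few of the changes put in and the drug fit most, so a member that did not pass in the CD93 experiment is not shown to be unchanged. Groups came from sample titles; the source field of the drug samples names LSK where the titles name LSC, and the titles were followed. Transcript lengths and gene overlaps came from GENCODE on GRCm38. The members and related lists were chosen with earlier results of these data known. Named in full were the members that passed (up to 6 of smallest p in each direction, or the 3 of smallest p where none passed), the highest and lowest member of each complex in Veh LSC, tissue isoform pairs, and related genes that passed (up to 3 per list; 1 such gene is not reported here). Alternatives were other scalings, pseudocounts of 0.1, other filters, a fit of only the compared groups, a replicate block and leaving out each library.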

Additional observations from a re-analysis of the deposited data

Results flagged for a closer look

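For 5 of the 82 members the difference between libraries labelled KO and WT differed between LSC and LSK by the test of the difference itself (limma, adjusted p under 0.05). That is 6.1% of the members, against 5.15% of all features that passed as lower. The library labelled KO LSC 2, which lists Cd93 at 44.3 RPKM, is in this comparison, and all 5 members also passed without it. The difference of the 2 differences, KO LSC minus WT LSC less KO LSK minus WT LSK on the log2(RPKM + 1) scale, was -9.49 for Ndufa11, -9.08 for Ndufb11, -8.88 for Ndufs8, -8.43 for Cox6b2 and -6.24 for Ndufa10. Each was at the lowest value in the KO LSC libraries, with the exception of Ndufs8 in KO LSC 1, so these sizes depend on the added 1. The libraries of KO LSC registered fewer features than those of any other group, and the part of this in the difference was not tested.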

How the results depend on the processing

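Of the named genes' values under the alternatives, 579 stayed on the same side of the threshold, 132 lost it and 0 turned sign. Counts of members that passed moved by over 1.5 times in several of the following cases. The share of all features that passed moved with the setting as well, from 0.182% to 2.94% in the drug fits that left out 1 library. A count with no such share beside it describes the setting and is not a result about the members. In MCP LSC against Veh LSC, 8 became 23 with libraries scaled by their median ratio (member median 0.37, all features -0.02), 5 with no filter and 0 with the replicate block, where 7 features passed as higher and 32 as lower; leaving out 1 library gave 0 to 9. In WT LSC against WT LSK, 10 became 18 with only the compared groups, and leaving out 1 library gave 6 to 11. The counts with 1 library left out were 7 to 17 for KO LSC against WT LSC, 16 to 32 for KO LSC against KO LSK and 0 to 1 for KO LSK against WT LSK, where Cox7a1 passed as lower without KO LSK 2. For the difference of the 2 genotype effects, 5 became 0 with the replicate block, where 0 of 13485 features passed by limma, and 5 to 11 with 1 library left out. The cause was not tested. Deviations of same-numbered libraries correlated at -0.02 to 0.00 for KO LSC and WT LSC and -0.01 to 0.01 for MCP LSC and Veh LSC. Such values do not show whether the replicate numbers pair the samples. KO LSK and WT LSK correlated at -0.28 and, crossed, at 0.28, which mirror each other because each group had 2 libraries. The crossed pairing, chosen after seeing the data, gave 0 members. The block turned the member median of WT LSC against WT LSK to 0.16. Scaling by the median ratio moved the median of all features from -0.11 to -0.49 for KO LSK against WT LSK and from -1.94 to -2.36 for WT LSC against WT LSK. Without counts, the precision of low values is not known.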
